A study of Mus musculus with 2 samples.

Results

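The genes described here are 40 genes of mitosis and cytokinesis, taken from a list of gene names drawn up by known role, with earlier results of these data known. They fall into 33 genes of mitotic entry, checkpoint, kinetochore, spindle and chromosome structure, called the mitotic members, and 7 genes of cytokinesis (Anln, Racgap1, Ect2, Kif23, Prc1, Cit and Aurkb), called the cytokinesis members. All 40 were found among the 27999 features of both deposited count matrices. The study profiled single cells of newborn mouse heart as a reference map from which transcription factors for lineage conversion were picked. Its 2 libraries were technical replicates 1 and 2 of 1 biological sample, made from whole hearts of C57BL6+ICR mice at P0 (the day of birth, day 0) that were minced and digested with trypsin for 30 min. The labels name no drug treatment and no engineered allele, and they do not say how many hearts were pooled. Cells were captured with the 10x Chromium 3′ version 2 chemistry. The 2 libraries share their cells' source, so they show the spread of the assay and not the spread between animals, and no test between animals could be made. Every interval below is a 95% interval for counting error only.

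A dividing cell condenses its chromosomes, attaches them through kinetochores to a spindle of microtubules, and separates them once the spindle checkpoint is satisfied. Cytokinesis then follows: microtubule bundles at the spindle midzone, held by Prc1 and by the centralspindlin pair Kif23 and Racgap1, recruit the exchange factor Ect2, which activates the small GTPase RhoA at the cell cortex. A contractile ring scaffolded by anillin (Anln) and citron kinase (Cit) closes the furrow, and the chromosomal passenger complex (Aurkb, Incenp, Birc5 and Cdca8) acts from the centromere to the midzone. Around birth, mouse cardiomyocytes pass from divisions that yield separate daughter cells to divisions that end without cytokinesis and leave binucleated cells, while the fibroblasts and endothelial cells of the heart go on dividing. A transcript count does not show which of these outcomes a cell was headed for.

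Cells were assigned by marker gates on barcodes with at least 500 detected genes and under 0.5% of counts from haemoglobin genes, which kept 8601 of 11935 barcodes. Barcodes at or above the haemoglobin limit numbered 1235 in technical replicate 1 and 1990 in technical replicate 2, with a median of 2391 counts. Cardiomyocytes had at least 10 counts and 0.3% of counts of Myl2 and Myl7, the ventricular and atrial myosin light chains. This gave 2626 and 2242 cardiomyocytes in technical replicates 1 and 2, beside 665 and 581 fibroblasts (collagen genes and Dcn) and 462 and 447 endothelial cells (Pecam1, Cdh5 and 4 further vascular genes). A further 517 mural cells and 161 myeloid cells were gated, 195 barcodes passed more than 1 gate and were left out, and 705 passed none. All 7 cardiomyocyte markers outside the gate (Tnnt2, Actc1, Myh6, Myh7, Tnni3, Actn2 and Ryr2) exceeded 20 CPM (the share of a class's counts scaled to 1e6) in gated cardiomyocytes, and they summed to 17581 and 17222 CPM there. In the same cells the 7 fibroblast markers summed to 46.5 and 54.8 CPM and the 7 endothelial markers to 21.7 and 29.1 CPM, with none of the 14 above 20 CPM. Fibroblasts held all 7 of their markers above 20 CPM (6804 and 6948 CPM in sum) and also 1267 and 1162 CPM of mural, 1035 and 925 CPM of cardiomyocyte and 271 and 346 CPM of epicardial markers, and endothelial cells held all 7 of theirs (3347 and 3664 CPM) beside 751 and 742 CPM of fibroblast and 578 and 674 CPM of cardiomyocyte markers. The part such RNA or doublets of 2 types play in the class values was not tested. Mitochondrial counts were a median 34.8% in cardiomyocytes, 3.27% in fibroblasts and 4.31% in endothelial cells. The libraries held 34668956 and 33871582 counts, their summed profiles correlated at 0.998 across genes with at least 10 counts, and 53 cell barcodes occurred in both, 31 of them among the kept cells.

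Mitotic members were lower in cardiomyocytes than in fibroblasts and endothelial cells, and so were cytokinesis members. The mitotic members summed to 775 and 781 CPM in the cardiomyocytes of replicates 1 and 2, to 2185 and 2021 CPM in fibroblasts, and to 2330 and 2287 CPM in endothelial cells. The cytokinesis members summed to 114 and 118 CPM in cardiomyocytes, 358 and 297 CPM in fibroblasts, and 348 and 342 CPM in endothelial cells. Cardiomyocytes were the lowest class in both libraries, and neither list's values overlapped with those of fibroblasts or endothelium. Fibroblasts exceeded cardiomyocytes 2.71-fold (2.66 to 2.76) in mitotic members and 2.84-fold (2.70 to 2.99) in cytokinesis members. The endothelial excess was 2.97-fold (2.92 to 3.02) for mitotic and 2.98-fold (2.85 to 3.12) for cytokinesis members. Part of these folds is set by the mitochondrial counts in the cardiomyocyte total: with counts outside mitochondrial genes as the total, the fibroblast excess was 1.87-fold for mitotic and 1.96-fold for cytokinesis members, and the endothelial excess 2.05-fold and 2.06-fold. Without barcodes over 20% mitochondrial counts, the fibroblast excess was 1.58-fold for mitotic and 1.90-fold for cytokinesis members, and the endothelial excess 1.72-fold and 1.98-fold. Mural cells had the highest sums of the 5 gated classes, 2732 CPM of mitotic and 461 CPM of cytokinesis members.

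**Figure D1:**
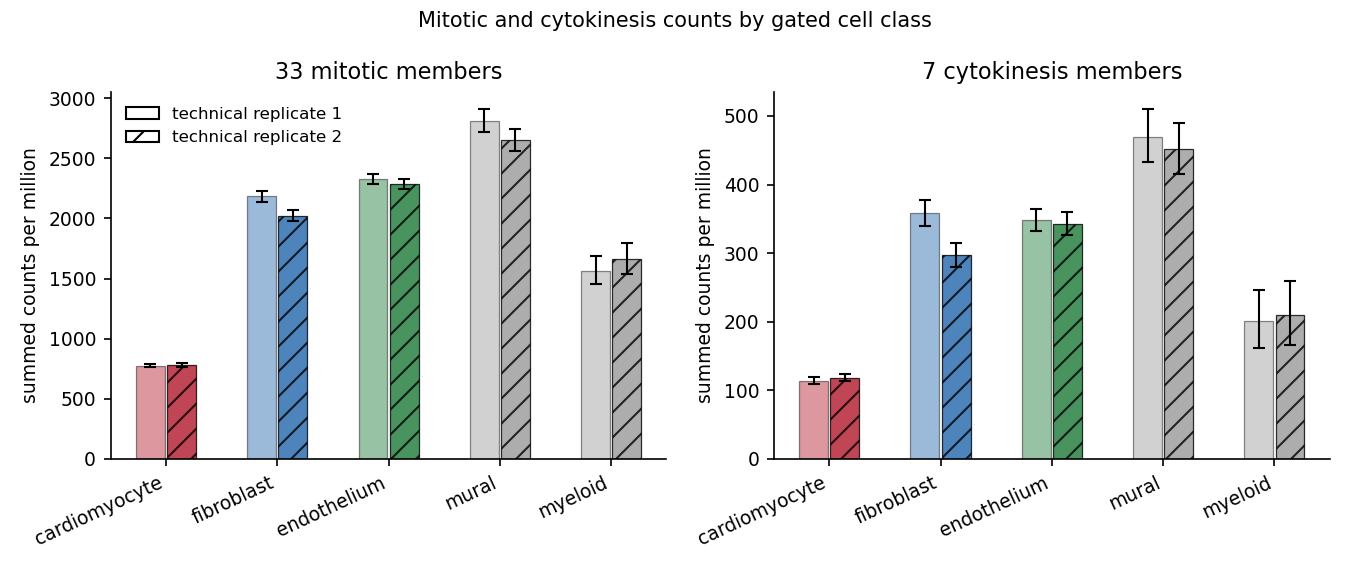
Summed CPM of the 33 mitotic members (left) and the 7 cytokinesis members (right) in each gated class, by technical replicate (plain bars replicate 1, hatched bars replicate 2; error bars are 95% Poisson intervals). Cardiomyocytes, at 775 and 781 CPM of mitotic and 114 and 118 CPM of cytokinesis members, are the lowest class in both panels.

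A smaller share of cardiomyocytes than of fibroblasts or endothelial cells carried several mitotic transcripts. Counts of every cell were drawn down to 2000, and a cell with at least 3 counts of mitotic members was called mitotic-positive. The positive share was 8.24% and 8.27% of cardiomyocytes, 26% and 18.9% of fibroblasts, and 38.3% and 34.0% of endothelial cells in replicates 1 and 2. Over both libraries it was 8.25% of 4824 cardiomyocytes (7.49 to 9.06), 22.7% of 1223 fibroblasts (20.4 to 25.2) and 36.2% of 901 endothelial cells (33 to 39.4), with 44, 23 and 8 cells left out for holding fewer than 2000 counts. The shares of cells with at least 3 mitotic counts before thinning were 16%, 34.5% and 59.3%, at median depths of 6256, 5592 and 8405 counts. The threshold cuts a continuous range: 164 cardiomyocytes lay just below it, with 2 counts, and 50 lay on it, with 3. Positive cardiomyocytes held 82.9% of all mitotic counts of their class. Within positive cells, which were chosen on these same counts and held a median 29.2%, 3.13% and 3.89% mitochondrial counts in the 3 classes, mitotic members summed to 6700 and 6443 CPM in cardiomyocytes, 6628 and 7571 CPM in fibroblasts, and 4163 and 4325 CPM in endothelial cells.

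Barcodes dominated by haemoglobin (at least 50% of counts, 61 barcodes with a median of 4898 counts) were set beside the gated cells. Whether their other counts are free RNA or RNA of red blood cells themselves was not tested. Of the 59 deep enough to thin, 5 passed the mitotic threshold, or 8.47% (2.81 to 18.7), beside 8.25% of cardiomyocytes. Ube2c was detected in 32.2% of the 59 after thinning, but in 1.74% of mitotic-negative cardiomyocytes. In these barcodes 86 of the mitotic counts were Ube2c, a ubiquitin-conjugating enzyme of the anaphase-promoting complex, and 16 were Nusap1, while 20 members, among them Top2a, Cenpf, Ccnb2, Aurkb, Cit, Incenp and Ndc80, were at 0 counts, which allows a count of each in up to 5.08% of the 59. Without Ube2c and Nusap1, left out because they led in these very barcodes, the share was 1.69% of haemoglobin-dominated barcodes and 7.90% of cardiomyocytes. Among all barcodes with at least 0.5% haemoglobin counts, 28.4% of the 2696 deep enough to thin were mitotic-positive, and 1.52% held at least 10 mitotic counts. What part free RNA plays in the single counts of the gated cells was not tested.

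Measured against the mitotic members, the cytokinesis members as a list were close to equal in the 3 classes over all gated cells, but lower in cardiomyocytes under some choices of cells. There were 0.149 cytokinesis counts per mitotic count in cardiomyocytes, 0.156 in fibroblasts and 0.149 in endothelial cells. The cardiomyocyte value relative to that of fibroblasts was 0.953 (0.903 to 1.01), and it was 0.896 in replicate 1 and 1.03 in replicate 2, so that the libraries lay on opposite sides of equality. Relative to endothelium it was 0.996 (0.948 to 1.05), with 0.984 and 1.01 by replicate. Without barcodes over 20% mitochondrial counts the values were 0.833 (0.771 to 0.900) and 0.868 (0.806 to 0.934), and with doubled gate minimums 0.891 (0.837 to 0.948) and 0.932 (0.879 to 0.988). These intervals, and that of replicate 1 against fibroblasts (0.833 to 0.965), lie below 1. They treat counts as independent, although counts gather in few cells, and are therefore too narrow. Intervals of the same kind for the mitotic sum of fibroblasts did not overlap between replicates 1 and 2 (2139 to 2232 and 1975 to 2068 CPM). In mitotic-positive cells alone the value was 1.02 (0.967 to 1.08) relative to fibroblasts and 1.10 (1.04 to 1.15) relative to endothelium, the latter with 1.07 and 1.12 by replicate. The value in positive cells also depended on the list and the cells: with Kif20a, Kif20b, Birc5 and Incenp, which act at both stages, counted as cytokinesis genes, the ratio to endothelium in positive cells became 0.845, and without barcodes over 20% mitochondrial counts it became 0.921, with 0.862 (0.795 to 0.934) relative to fibroblasts. In mural cells the value was 0.169 and in myeloid cells 0.127.

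Cells matched for their mitotic counts lay close together where mitotic counts were high and apart where they were low. Among cells with 10 to 19 mitotic counts after thinning, the mean was 2.28 cytokinesis counts (1.99 to 2.60) in 96 cardiomyocytes, 2.47 (2.16 to 2.82) in 89 fibroblasts and 1.86 (1.59 to 2.16) in 93 endothelial cells. With 20 or more mitotic counts it was 3.78, 3.95 and 3.42 in the same order. With 3 to 4 it was 0.330 (0.227 to 0.463) in 100 cardiomyocytes, 0.591 (0.386 to 0.866) in 44 fibroblasts and 0.544 (0.383 to 0.750) in 68 endothelial cells, intervals that overlap. Among cells with no mitotic count, cardiomyocytes had 0.018 cytokinesis counts per cell, below the 0.044 of fibroblasts and the 0.079 of endothelial cells with intervals that do not overlap. With 1 mitotic count cardiomyocytes had 0.026 (0.016 to 0.039), fibroblasts 0.071 (0.042 to 0.113) and endothelial cells 0.096 (0.056 to 0.154), and with 2 they had 0.061 (0.029 to 0.112), 0.080 (0.029 to 0.174) and 0.293 (0.188 to 0.435). Cardiomyocytes were thus below endothelium without overlap at both counts, and below fibroblasts at 1. These means pool the cells of both libraries, with no value by library, and their intervals again treat counts as independent. The thinned counts include mitochondrial ones. In cells with no mitotic count these were a median 36.0% in cardiomyocytes, 3.29% in fibroblasts and 4.54% in endothelial cells. The part they play in the lower cardiomyocyte values was not tested.

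**Figure D2:**
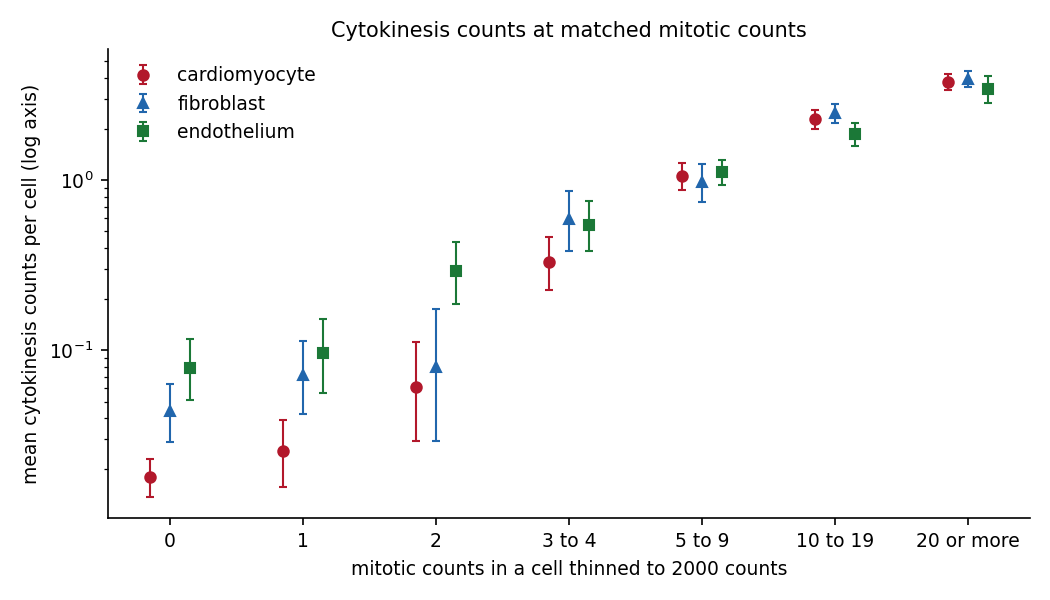
Mean counts of the 7 cytokinesis members per cell (log axis) against the number of mitotic counts in the same cell, each cell thinned to 2000 counts, mitochondrial ones included, for cardiomyocytes, fibroblasts and endothelial cells of both libraries (error bars are 95% Poisson intervals). From 5 mitotic counts upward the classes lie close together, for example 1.06, 0.970 and 1.12 cytokinesis counts at 5 to 9 mitotic counts.

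Single cytokinesis members differed widely within the list total. Cit, which encodes citron kinase of the cleavage furrow and midbody (ENSMUSG00000029516, chr5:115845278-116008947 on the plus strand of GRCm38), was at 3.99 and 4.75 CPM in cardiomyocytes, 39.8 and 29.2 CPM in fibroblasts, and 55.3 and 49.0 CPM in endothelial cells. Aurkb, the kinase of the chromosomal passenger complex (ENSMUSG00000020897, chr11:69045647-69051664, plus strand), was at 5.22 and 5.27 CPM in cardiomyocytes, 39.1 and 31.1 CPM in fibroblasts, and 39.8 and 38.0 CPM in endothelial cells. Both genes were low in both cardiomyocyte libraries with no overlap with the other classes. Cit was 8.0-fold (6.49 to 9.88) higher in fibroblasts and 12.0-fold (9.96 to 14.6) higher in endothelium than in cardiomyocytes, and Aurkb 6.73-fold (5.53 to 8.21) and 7.43-fold (6.19 to 8.94). Anln (ENSMUSG00000036777, chr9:22332012-22389188, minus strand) stood at the other end, at 24.4 and 23.5 CPM in cardiomyocytes, 30.8 and 32.3 CPM in fibroblasts, and 28.5 and 30.2 CPM in endothelial cells. Its cardiomyocyte values were still the lowest, but fibroblasts exceeded them only 1.31-fold (1.13 to 1.52) and endothelium 1.22-fold (1.07 to 1.40), the smallest folds of the 40 members. With counts outside mitochondrial genes as the total, Anln lay higher in cardiomyocytes, at 36.9 and 35.8 CPM against 32.3 and 33.8 CPM in fibroblasts and 30.0 and 31.7 CPM in endothelial cells, while Cit was still 5.52-fold and 8.31-fold and Aurkb 4.65-fold and 5.14-fold lower.

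The other cytokinesis members lay between these. Prc1, the microtubule bundler of the midzone, was at 31.2 and 32.9 CPM in cardiomyocytes against 126 and 109 CPM in fibroblasts and 115 and 106 CPM in endothelium. Kif23, the centralspindlin motor, was at 9.91 and 10.4 CPM against 33.8 and 31.4 CPM and 40.6 and 41.3 CPM. Fibroblasts and endothelium exceeded cardiomyocytes 3.69-fold and 3.46-fold in Prc1 and 3.22-fold and 4.03-fold in Kif23. Its partner Racgap1 was at 28.9 and 29.6 CPM in cardiomyocytes, 63.3 and 49.7 CPM in fibroblasts, and 54.7 and 59.9 CPM in endothelium, a fold of 1.95 and 1.96. Ect2 was at 10.2 and 11.5 CPM, 25.5 and 14 CPM, and 13.2 and 18.2 CPM, and its fibroblast value moved most between the libraries.

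The promoter windows of cytokinesis members are shown because 5 of the 6 found in the RefSeq table carry a motif known from late cell cycle genes. The window of Cit holds none, but it lies around the RefSeq start, inside the gene as GENCODE draws it from 115845278, so it is not upstream of that gene start. The stretches run from 180 bases before to 30 bases after the RefSeq transcript start on GRCm38.p6, and capitals mark TTTGAA, the core of the cell cycle genes homology region, and CCAAT, on either strand. Members with 1 window in the table are printed, with Hmmr, a mitotic member described below, added after its values were seen.
Anln, chr9:22389177-22389386, minus strand: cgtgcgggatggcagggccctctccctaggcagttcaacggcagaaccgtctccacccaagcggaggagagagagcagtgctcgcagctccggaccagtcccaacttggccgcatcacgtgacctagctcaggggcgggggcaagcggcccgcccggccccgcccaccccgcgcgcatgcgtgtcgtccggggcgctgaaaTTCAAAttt
Racgap1, chr15:99651627-99651836, minus strand: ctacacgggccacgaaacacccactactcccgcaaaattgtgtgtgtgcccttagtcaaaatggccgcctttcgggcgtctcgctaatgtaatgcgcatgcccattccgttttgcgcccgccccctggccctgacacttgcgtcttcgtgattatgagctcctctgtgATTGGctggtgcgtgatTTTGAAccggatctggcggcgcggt
Kif23, chr9:61946770-61946979, minus strand: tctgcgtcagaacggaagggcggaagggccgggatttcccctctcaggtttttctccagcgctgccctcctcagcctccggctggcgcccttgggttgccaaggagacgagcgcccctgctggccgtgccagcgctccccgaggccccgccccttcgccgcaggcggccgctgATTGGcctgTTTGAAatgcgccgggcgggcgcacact
Cit, chr5:115845476-115845685, plus strand: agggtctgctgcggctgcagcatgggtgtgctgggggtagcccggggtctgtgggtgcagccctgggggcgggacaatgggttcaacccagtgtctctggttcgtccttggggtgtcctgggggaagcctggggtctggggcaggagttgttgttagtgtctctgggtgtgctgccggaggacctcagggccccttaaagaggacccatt
Hmmr, chr11:40733408-40733617, minus strand: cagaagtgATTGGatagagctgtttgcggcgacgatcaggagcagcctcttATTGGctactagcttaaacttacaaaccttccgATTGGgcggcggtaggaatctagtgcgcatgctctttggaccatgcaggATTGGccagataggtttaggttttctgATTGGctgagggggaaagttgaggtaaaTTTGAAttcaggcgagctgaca

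Over the full windows of 250 bases before to 50 bases after the start, 33 members matched the table by symbol, and Aurkb, Incenp, Ccna2, Cdc25c, Kif20a, Tpx2 and Smc4 did not. TTTGAA or its complement was present in 25 of them (75.8%), against 20.2% of all 27025 genes with a window. CCAAT or its complement was present in 24 (72.7%), against 41.1% of all genes, and both motifs in 21 (63.6%), against 7.97%. Cit, Mad2l1, Nuf2, Birc5 and Nusap1 held neither motif in their windows, Ndc80 and Anln held TTTGAA alone, and Smc2 held both. These matches describe letters in these windows and were not tied to the counts.

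Of the 40 members, 30 were at least 2-fold lower in cardiomyocytes than in fibroblasts in both libraries, and 29 were so against endothelium. The background was high: the same rule called 35.3% of all 12201 genes tested lower in cardiomyocytes than in fibroblasts and 36.8% of 12244 lower than in endothelium, and 12.1% and 14.3% higher, or 47.4% and 51.1% in either direction. The median member was 2.74-fold higher in fibroblasts and 3.04-fold higher in endothelium, beside a median of 1.58-fold and 1.62-fold over all genes tested. No member was past the rule in the opposite direction. With counts outside mitochondrial genes as the total, 16 members were past it against fibroblasts, where the background was 21.9%, and 19 against endothelium, where it was 23.3%. Without barcodes over 20% mitochondrial counts, which leaves 1001 cardiomyocytes, 8 and 13 of the 40 members were past it, at backgrounds of 24.9% and 26.9%. The members' share there lay below the background against fibroblasts and somewhat above it against endothelium. Over counts outside mitochondrial genes the direction flipped in both libraries for Anln against either class and for Kif20a against endothelium, and in 1 library each for Bub1b, Hmmr and Ect2 against fibroblasts and Ccnb1 and Ect2 against endothelium. The 8 members past the rule against fibroblasts without barcodes over 20% mitochondrial counts were Ndc80, Incenp, Tpx2, Nusap1, Mki67, Smc2, Cit and Aurkb.

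**Figure D3:**
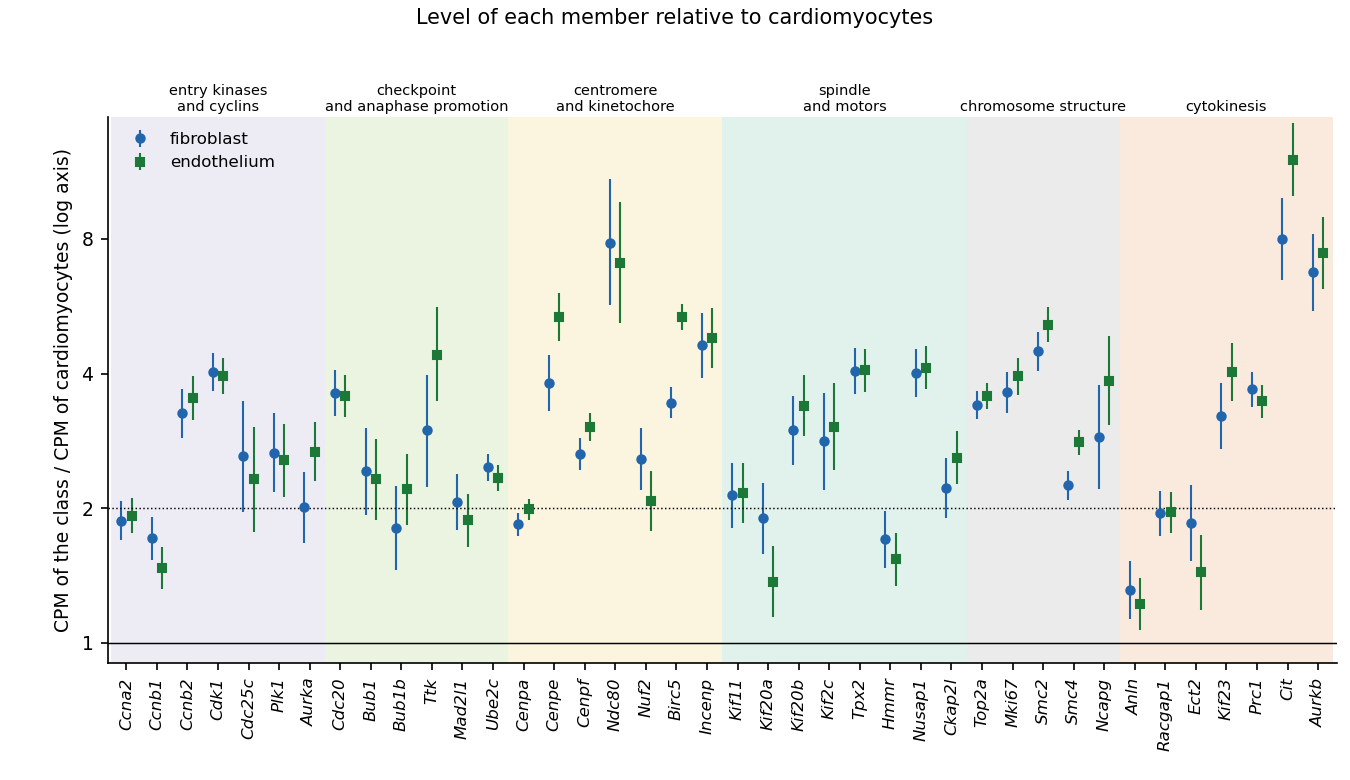
CPM of each member in fibroblasts (circles) and endothelial cells (squares) divided by those in cardiomyocytes (log axis), both libraries together, grouped by role, with 95% counting intervals and a dotted line at 2-fold. Cit, at 8.0-fold and 12.0-fold, and Anln, at 1.31-fold and 1.22-fold, are the extremes, both among the cytokinesis members.

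Among the 7 entry kinases and cyclins, 5 were past the rule against each class, at backgrounds of 35.3% and 36.8% of all genes tested. Over counts outside mitochondrial genes, only Ccnb2 and Cdk1 of the 7 were past it, against either class. Cdk1, the kinase that drives mitotic entry, was at 26.8 and 23.6 CPM in cardiomyocytes, 98.8 and 105 CPM in fibroblasts, and 103 and 95.6 CPM in endothelium, a 4.03-fold and 3.95-fold excess. Its partner cyclin Ccnb2 differed 3.26-fold and 3.53-fold, while Ccnb1, the other B-type cyclin, was at 36.1 and 31.6 CPM in cardiomyocytes against 57.2 and 59.2 CPM in fibroblasts and 51.5 and 48.1 CPM in endothelium, a fold of 1.71 and 1.47. Ccna2 also stayed under 2-fold, at 1.88 and 1.92. The kinases Plk1 and Aurka and the phosphatase Cdc25c differed between 2.01-fold and 2.67-fold.

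Of the 6 genes of the spindle checkpoint and anaphase promotion, 5 were past the rule against each class, at backgrounds of 35.3% and 36.8%. Over counts outside mitochondrial genes, only Cdc20 was past it against fibroblasts, and only Cdc20 and Ttk against endothelium. Cdc20, the activator of the anaphase-promoting complex, was at 19.5 and 19.99 CPM in cardiomyocytes against 70.1 and 72.9 CPM in fibroblasts and 69.4 and 71.1 CPM in endothelium. The checkpoint genes Bub1, Bub1b and Mad2l1 differed between 1.81-fold and 2.42-fold, and the checkpoint kinase Ttk 2.99-fold and 4.41-fold. Ube2c differed 2.47-fold and 2.33-fold.

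The centromere and kinetochore genes spread widely. Ndc80, the microtubule-binding subunit of the outer kinetochore (chr17:71496100-71526857, minus strand), was at 1.53 and 2.34 CPM in cardiomyocytes, 15.6 and 14.3 CPM in fibroblasts, and 14.2 and 12.8 CPM in endothelium, and so was low in both cardiomyocyte libraries without overlap. The excess was 7.84-fold (5.70 to 10.9) and 7.06-fold (5.19 to 9.69), resting on 62 counts in all cardiomyocytes. Nuf2, which pairs with Ndc80 in the same complex, differed only 2.58-fold and 2.07-fold. Incenp, the scaffold of the passenger complex (chr19:9872296-9899551, minus strand), was at 9.03 and 8.01 CPM in cardiomyocytes against 39.8 and 39.3 CPM in fibroblasts and 43.4 and 38.4 CPM in endothelium. Birc5, its survivin subunit, was at 43.1 and 43.7 CPM against 155 and 143 CPM and 246 and 218 CPM, with the endothelium above the fibroblasts in both libraries. The kinetochore motor Cenpe differed 3.81-fold and 5.35-fold, Cenpf 2.64-fold and 3.04-fold, and Cenpa, the centromeric histone, 1.84-fold and 1.99-fold.

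Of the 8 spindle genes and motors, 5 were past the rule against each class, at backgrounds of 35.3% and 36.8%. Over counts outside mitochondrial genes, only Tpx2 and Nusap1 were past it against fibroblasts, with Kif20b added against endothelium. Tpx2, a spindle assembly factor, differed 4.05-fold and 4.07-fold, and Nusap1, which bundles spindle microtubules, 4.01-fold and 4.12-fold. Hmmr, a spindle-associated hyaluronan receptor, was at 21.3 and 18.6 CPM in cardiomyocytes, 40.8 and 26.7 CPM in fibroblasts, and 31.3 and 30.2 CPM in endothelium, so that the fibroblasts of replicate 2 lay nearer to cardiomyocytes than those of replicate 1. The midzone motor Kif20a differed 1.90-fold and 1.37-fold and its relative Kif20b 2.98-fold and 3.39-fold. Kif11, Kif2c and Ckap2l differed between 2.14-fold and 3.04-fold. All 5 genes of chromosome structure were past the rule against each class, at the same backgrounds. Over counts outside mitochondrial genes, Smc4 and Ncapg were not past it against fibroblasts, nor was Smc4 against endothelium. Smc2, a core subunit of condensin (chr4:52439243-52488260, plus strand), was at 25.6 and 22.5 CPM in cardiomyocytes against 112 and 104 CPM in fibroblasts and 120 and 129 CPM in endothelium. Its partner Smc4 differed only 2.25-fold and 2.81-fold, Top2a 3.40-fold and 3.57-fold, Mki67 3.63-fold and 3.94-fold, and Ncapg 2.89-fold and 3.86-fold.

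The make-up of the module, the share of each gene in the counts of all 40 members, does not depend on the class totals. It still depends on the mix of cells, since members were also counted in mitotic-negative cells: after thinning, Smc2 was detected in 1.27% of negative cardiomyocytes, 5.29% of fibroblasts and 6.43% of endothelial cells, and Cit in 0.203%, 1.59% and 3.65%. Over all cells, cardiomyocytes had a lower share of Cit, Aurkb, Ndc80, Incenp and Smc2 and a higher share of Anln and Hmmr than both other classes, by odds past 1.5 in both libraries. Against fibroblasts alone 5 members were lower (14.6% of all genes by the same rule) and 2 higher (51.3%), and against endothelium alone 7 were lower (14%) and 7 higher (55.7%). Against member counts, the same rule called 7.26% of all 11812 genes tested lower than in both classes and 45.4% higher, since most genes differed less between the classes than the members did. Restricted to mitotic-positive cells, which were chosen on the counts of the mitotic members themselves, the same 5 members were lower than in both classes, at a background of 27.4%, and Anln, Hmmr and Ccna2 were higher, at a background of 10.2%. Out of 40 members, both of these counts lie below their backgrounds. A member's odds were taken against the other members, but those of other genes against all member counts. Such backgrounds therefore move with the level of the whole module, and do not show whether the called members are many or few. There the share of Cit was 0.489% in cardiomyocytes, 1.32% in fibroblasts and 1.65% in endothelium, an odds ratio of 0.369 (0.295 to 0.461) against fibroblasts and 0.292 (0.238 to 0.359) against endothelium. Aurkb took 0.604%, 1.48% and 1.49%, with odds ratios of 0.406 (0.330 to 0.498) and 0.401 (0.331 to 0.486). Anln took 2.96%, 1.32% and 1.13%, with odds ratios of 2.28 (1.96 to 2.65) and 2.68 (2.33 to 3.08).

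Of the other members past the rule in positive cells, Ndc80 had odds ratios of 0.347 and 0.435 against fibroblasts and endothelium, Incenp 0.505 and 0.527, Smc2 0.552 and 0.506, Hmmr 1.69 and 2.11, and Ccna2 1.57 and 1.70. Against endothelium alone, Ccnb1, Kif20a, Racgap1 and Ect2 were also higher, which made 7 of the 40 (10.7% of all genes). Cenpe and Birc5 were also lower there, which made 7 (61.2%). The count of higher members lies above its background and that of lower members below, but these backgrounds too move with the level of the whole module. Within the passenger complex, Aurkb and Incenp were low against both classes and Birc5 against endothelium. Against fibroblasts, where backgrounds were 31.3% lower and 17.7% higher, 32 of the 40 and against endothelium 26 of the 40 were past the rule in neither direction. Among cells with at least 10 mitotic counts the shares of Cit, Aurkb, Incenp and Smc2 were again lower than in both classes and Ndc80 was lower than in fibroblasts only. In these cells Ccna2, Ccnb1, Hmmr, Anln and Racgap1 had a higher share than in both classes. The share of all genes past the rule was not computed for this set of cells. Around the odds ratio over all cells, which for Cit was 0.338 against fibroblasts, 10 settings of cells and libraries ranged from 0.267 to 0.417 for Cit, 0.341 to 0.433 for Aurkb, 0.278 to 0.432 for Ndc80 and 1.79 to 2.43 for Anln.

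**Figure D4:**
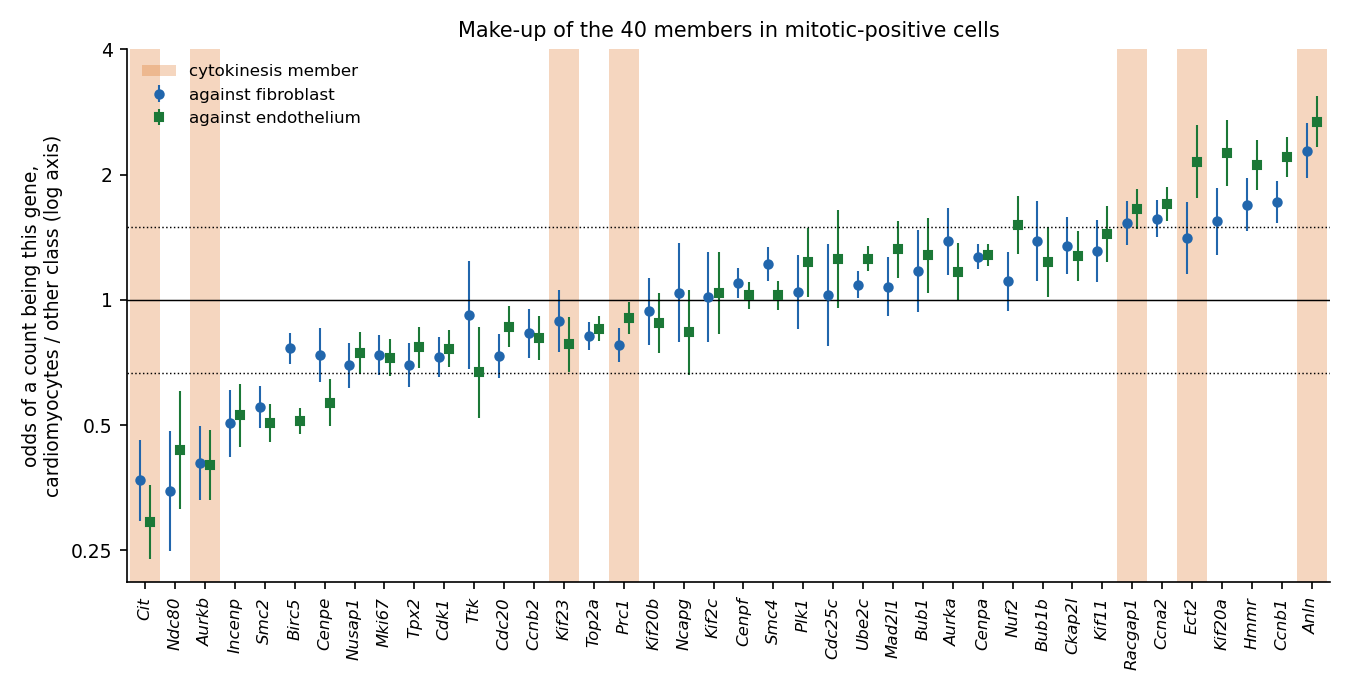
Odds that a count of the 40 members belongs to the named gene, in mitotic-positive cardiomyocytes over mitotic-positive fibroblasts (circles) and endothelial cells (squares), on a log axis with 95% intervals and dotted lines at 1.5 in either direction, both libraries together. Shaded columns are cytokinesis members: Cit (0.369 and 0.292) and Aurkb (0.406 and 0.401) lie at the low end and Anln (2.28 and 2.68) at the high end.

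Cit and Aurkb, like the mitotic members Ndc80, Incenp and Smc2, were detected in a smaller share of positive cardiomyocytes than of positive fibroblasts. In thinned positive cells, Cit was detected in 6.53% of 398 cardiomyocytes (4.31 to 9.43), 18.0% of 278 fibroblasts (13.7 to 23.0) and 12.9% of 326 endothelial cells (9.45 to 17), and before thinning in 22.1%, 47.8% and 56.4%. Aurkb was detected in 8.79%, 19.1% and 16.3%, and Anln in 27.1%, 20.5% and 13.2%. Hmmr was detected in 27.4%, 19.8% and 13.5%, and Ndc80 in 1.26%, 8.63% and 4.91%. For Incenp the values were 9.05%, 21.2% and 15.6%, and for Smc2 25.4%, 42.4% and 35.9%. Thinned counts include mitochondrial ones, which were a median 29.2%, 3.13% and 3.89% of counts in positive cells. The part they play in detection was not tested. Detection did not always take the order of the shares: Cit had a higher share in endothelium than in fibroblasts but a lower detected value after thinning, with overlapping intervals, and Ccna2, whose share was higher than in fibroblasts, was detected in 43.7% of positive cardiomyocytes and 42.1% of positive fibroblasts. Among positive cells with an Anln count, Aurkb was detected in 18 of 108 cardiomyocytes (16.7%, 10.2 to 25.1), 15 of 57 fibroblasts (26.3%, 15.5 to 39.7) and 8 of 43 endothelial cells (18.6%, 8.39 to 33.4), and at this depth no difference was detectable.

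Among cardiomyocytes with many mitochondrial counts, mitotic counts were lower where Myl2 and Myl7 were higher, up to 2% of counts. Among barcodes with at least 20% mitochondrial counts that passed no other gate, the mitotic sum was 1482 CPM where Myl2 and Myl7 made up 0.3 to 0.4% of counts, 770 CPM at 0.4 to 0.6%, 541 CPM at 0.6 to 1%, and 295 CPM at 1 to 2%. At 2% and above the libraries parted, at 419 CPM in the 68 cells of replicate 1 and 188 CPM in the 83 of replicate 2. The 7 other cardiomyocyte markers went, step by step from the gate to 2%, from 11110 to 20089 CPM. Just below the gate, at 0.15 to 0.3%, 481 barcodes held 1961 CPM of mitotic members beside 9340 CPM of cardiomyocyte markers and 49.6 CPM of fibroblast markers. The gate therefore bears on every cardiomyocyte value here: the 628 ungated barcodes of this kind were mitotic-positive in 22.1%, and counting them as cardiomyocytes moved the positive share of the class from 8.25% to 9.79%.

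**Figure D5:**
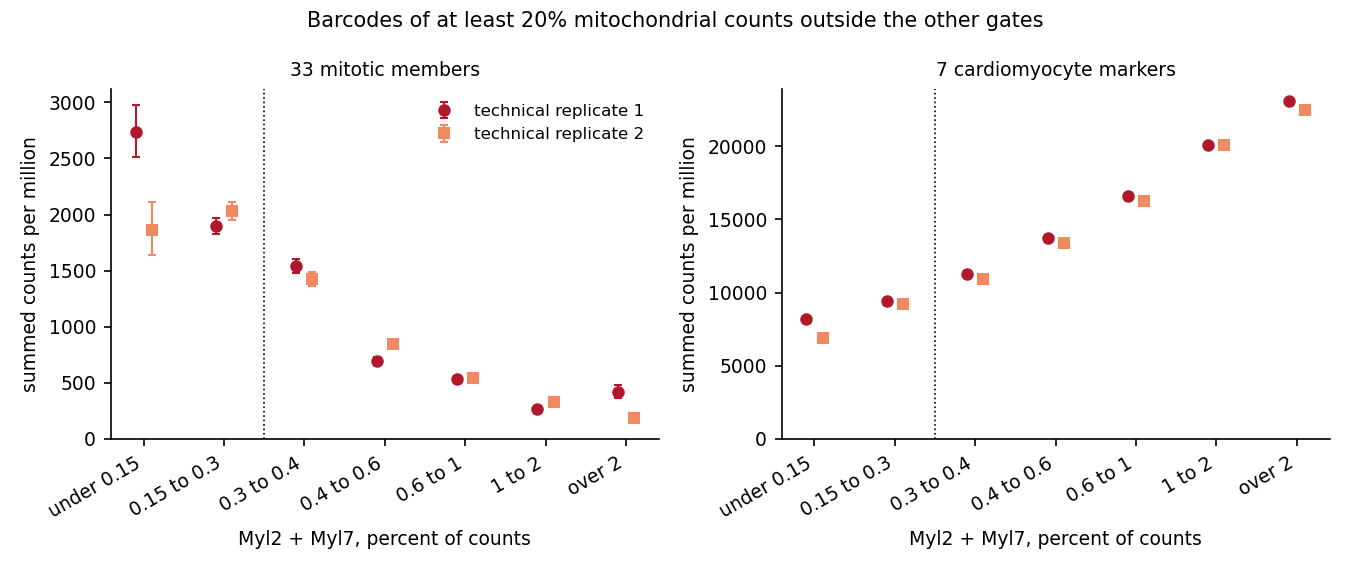
Barcodes with at least 20% mitochondrial counts and no fibroblast, endothelial, mural or myeloid gate, binned by the percent of counts from Myl2 and Myl7, with the mitotic members (left, 95% Poisson intervals) and 7 cardiomyocyte markers outside the gate (right), in CPM by technical replicate; the dotted line is the cardiomyocyte gate at 0.3%. Mitotic counts over both libraries go from 1961 CPM just below the gate to 295 CPM at 1 to 2%, while the markers are higher at each step. In the last bin the libraries differ, at 419 and 188 CPM.

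The members also differed between kinds of cardiomyocytes. Ventricle-leaning cells, with at least as much Myl2 as Myl7, held 693 and 723 CPM of mitotic members in replicates 1 and 2, and atrium-leaning cells 1002 and 933 CPM. Cytokinesis counts per mitotic count were 0.139 (0.133 to 0.145) in ventricle-leaning and 0.168 (0.159 to 0.178) in atrium-leaning cells. The positive shares, 8.03% and 8.79%, had overlapping intervals. Median mitochondrial counts were 40.2% and 21.7% in these groups, and the part they play in the difference was not tested. The 1001 cardiomyocytes with under 20% mitochondrial counts held 1353 CPM of mitotic members, against 649 CPM in the other 3867, and 0.129 against 0.158 cytokinesis counts per mitotic count. The 7 cardiomyocyte markers summed to 23269 and 16093 CPM in these groups, so between them the group with more marker counts also had more mitotic counts. The share of Cit was low in each kind, at 0.472% in ventricle-leaning and 0.515% in atrium-leaning cells over all cells, as was that of Aurkb, at 0.541% and 0.676%.

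Other genes of the pathways were described from lists drawn up with earlier results known. Of 45 further mitosis genes, 30 were past the 2-fold rule against fibroblasts and 34 against endothelium, all lower in cardiomyocytes, with median folds of 3.01 and 3.21. The same rule called 35.3% and 36.8% of all genes tested lower. The largest folds against fibroblasts were those of Psrc1, a spindle protein (8.29-fold, at 2.35 and 1.76 CPM in cardiomyocytes and 17.9 and 16.3 CPM in fibroblasts), Kif22, a chromosome-arm motor (5.26-fold), and Pbk, a mitotic kinase (5.24-fold). In positive cells, 6 of the 45 had lower odds against member counts than in both other classes (Kif15, Kif22, Cenpn, Psrc1, Ccnf and Fbxo5), and 2 had higher odds (Nek2, and Arhgap11a, a RhoA-directed GTPase-activating protein), at 2.1 and 2.72 against fibroblasts. The backgrounds were 27.4% and 10.2% of all genes, so both counts are below them. These genes were named after their values were seen.

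Of 20 further cytokinesis genes, 19 could be tested against fibroblasts. Of these, 8 were past the rule, all lower in cardiomyocytes, a share not far above the 35.3% of all genes tested. The median fold was 1.94, beside the 1.58 of all genes. The furrow and septin genes Sept9 (17.7-fold, at 5.28 and 4.49 CPM in cardiomyocytes and 83.0 and 91.5 CPM in fibroblasts), Sept11 (15.4-fold) and Myh9, the non-muscle myosin heavy chain (10.8-fold), led this list. Septins and non-muscle myosin also serve the cell cortex outside division. In positive cells, odds against member counts were lower than in both classes for 7 of the 20 (Rhoa, Myh9, Myh10, Sept2, Sept7, Sept9 and Sept11), near the background of 27.4%, and higher for Iqgap3. Over all cells 3 were lower (Myh9, Sept9 and Sept11; background 7.26%) and 6 higher (Iqgap3, Rock1, Rock2, Tsg101, Vps4a and Spast; background 45.4%).

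Of 41 S phase genes, 28 were past the rule against fibroblasts and 29 against endothelium, all lower in cardiomyocytes, with Dscc1 (9.22-fold), Cdca7 (8.23-fold) and Chaf1b (7.62-fold) first. The backgrounds of genes called lower were 35.3% and 36.8% of all genes tested. S phase counts per mitotic count were 0.775 in cardiomyocytes, 0.730 in fibroblasts and 0.731 in endothelium, with 0.793 and 0.754, 0.762 and 0.691, and 0.725 and 0.737 by replicate. The cardiomyocyte value depended on the cells: it was 0.508 in those under 20% mitochondrial counts and 0.900 in the others. Of 28 cell cycle regulators tested, 14 were past the rule against fibroblasts, all lower in cardiomyocytes, beside the same background of 35.3%. Cyclin D1 (Ccnd1), which opens the cycle, was at 6.10 and 5.60 CPM in cardiomyocytes and 160 and 194 CPM in fibroblasts, a 30.0-fold excess, and the inhibitor Cdkn1c was at 20.2 and 21.9 CPM against 420 and 525 CPM, a 22.3-fold excess. Ccnd2, another D-type cyclin, was past the rule against neither fibroblasts nor endothelium. Mybl2, a transcription factor of late cell cycle genes, was at 1.47 and 1.5 CPM in cardiomyocytes against 15.4 and 12.3 CPM in fibroblasts, a 9.41-fold excess. No gene of these 4 lists was past the rule higher in cardiomyocytes than in fibroblasts, and against endothelium only Meis1 was.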

How the data were processed

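For each library the authors deposited a matrix of whole-number counts, genes by barcodes, that had not been normalized. Cell Ranger 2.1.0 and the mm10 build are named per the submitters' processing notes. Whether a count is a molecule or a read is not given in the sources used here. Both sample records carry the same internal identifier while the second matrix carries another, so matrices were assigned by deposit record. Symbols and coordinates came from GENCODE vM21 (GRCm38), and 27645 of 27999 features had a symbol. Promoter sequences are from RefSeq.

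Barcodes were gated on markers, sums were taken over the cells of a class in each library, and CPM was computed over all counts. No doublet caller was run, and barcodes past more than 1 gate were left out. Intervals are exact binomial or Poisson, conditional binomial for ratios, and logarithmic for odds ratios. With 1 biological sample no p-value was computed. The fold rule asked for a ratio of at least 2 in the same direction in both replicates and at least 20 counts over both classes in each. The share rule asked for odds past 1.5 in both replicates and a pooled interval that leaves out 1. All members are named. Of each other list the 3 genes past the fold rule with the lowest ratio to fibroblasts were named. No gene of these lists was past it higher than in fibroblasts. Some genes of these lists past the share rule against both classes, and Meis1 and Ccnd2, were also named after their values were seen. The members and lists were chosen with earlier results of these data known. The scripts were tested on simulated data. Tools were numpy 2.4.6, pandas 2.3.3, matplotlib 3.10.9 and scipy 1.17.1 under Python 3.11.15. Alternatives covered the total, replicates, gates, mitochondrial counts, gene minimum, multi-gate and very deep barcodes, averaging, thinning, thresholds and list membership.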

Additional observations from a re-analysis of the deposited data

How the results depend on the processing

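The alternatives came to 218 for the summary values, of which 130 stayed within the spread of the main value, 86 moved and 2 reversed, and to 400 for single members' odds, of which 355 stayed, 45 moved and 0 reversed. No paired analysis was possible because the replicate numbers mark 2 libraries of 1 sample and the compared cells come from the same library. Halved gates, added ungated barcodes, thinning outside mitochondrial genes and the list without Ube2c and Nusap1 were chosen after seeing the data. Where a setting changed a value, the cause was not tested unless the setting's own construction shows it.

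The ratio of cardiomyocytes to fibroblasts in mitotic CPM was 0.369, and it was 0.355 to 0.386 with a replicate left out, 0.535 over counts outside mitochondrial genes, 0.633 without barcodes over 20% mitochondrial counts, 0.325 and 0.422 with gate minimums doubled and halved, 0.382 with multi-gate barcodes, 0.356 without very deep barcodes, and 0.417 with ungated barcodes added. For cytokinesis CPM it was 0.352, and 0.318 to 0.397, 0.510, 0.527, 0.290, 0.426, 0.324 without very deep barcodes and 0.414 with ungated ones, 0.323 as a mean over cells, 0.333 with Kif20a, Kif20b, Birc5 and Incenp moved to the list, and 0.379 without Cit. Against endothelium the mitotic ratio of 0.337 became 0.487, 0.583, 0.282, 0.372, 0.344 with multi-gate barcodes, 0.287 and 0.380 for deep and ungated barcodes, 0.343 at 1000 genes, 0.326 as a mean over cells, and 0.347 without Smc2, Smc4 and Incenp. The cytokinesis ratio of 0.336 became 0.485, 0.506, 0.263, 0.388, 0.268, 0.395, 0.304 as a mean over cells, 0.284 with the genes moved, and 0.381 without Cit.

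Cytokinesis per mitotic count relative to fibroblasts, 0.953, was 0.896 to 1.03 with a replicate left out, 0.891 and 1.01 with gates doubled and halved, 0.833 without barcodes over 20% mitochondrial counts, 0.882 with the genes moved and 1.03 without Cit. Relative to endothelium, 0.996, it was 0.932 with doubled gates and also without very deep barcodes, 0.868, 0.801 and 1.13. In positive cells the value of 1.02 was 0.959 to 1.11, 0.962, 0.862, 0.925 and 1.09, and that of 1.10 was 1.04 with doubled gates and without very deep barcodes, 1.21 without Cit, and reversed to 0.921 without barcodes over 20% mitochondrial counts and to 0.845 with the genes moved. The positive share of cardiomyocytes, 8.25%, was 6.69% and 9.44% with gates doubled and halved, 11.1% without barcodes over 20% mitochondrial counts, 9.79% with ungated barcodes, 6.16% and 10.1% after thinning to 1000 and 3000 counts, 11.7% and 6.18% at thresholds of 2 and 5 counts, and 10.1% after thinning outside mitochondrial genes. For fibroblasts, 22.7%, it was 18.9 to 26% by replicate and 17.7%, 29.2%, 28.9% and 19.1% for thinning and thresholds, and for endothelium, 36.2%, it was 26%, 43.4%, 45.3% and 28.6%. Members past the fold rule were 16 and 8 in place of 30 against fibroblasts, and 19 and 13 in place of 29 against endothelium, over counts outside mitochondrial genes and without barcodes over 20% mitochondrial counts. The shares of all genes that were lower in cardiomyocytes were then 21.9% and 24.9%, and 23.3% and 26.9%. With the rule asked of 1 library only, 8 members without replicate 1 and 6 without replicate 2, in place of 5, had a lower share than in fibroblasts, and 8 and 4, in place of 2, a higher one. The share of all genes past the rule in 1 library was not computed, so nothing is concluded from these counts.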
